A study of Mus musculus with 4 samples.

Results

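The 9 genes described here encode receptors of the TNF receptor superfamily: Tnfrsf1a, Tnfrsf1b, Fas, Ltbr, Tnfrsf9, Tnfrsf11a, Tnfrsf12a, Tnfrsf14 and Tnfrsf10b. They were taken by name from 22180 genes that had at least 1 probe set annotated with exactly 1 gene symbol. Earlier results of these data were known when these genes and the other lists were chosen. Each of the 9 was represented by 1 probe set. All 9 passed the filter on low values and were among the 14652 genes tested.

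The cells were dendritic cells, which present antigen to T cells, cultured from the bone marrow of C57BL/6 mice and harvested on day 7. The treated cells had 0.3 µM sulforaphane in DMSO for 2 h. Sulforaphane is a plant isothiocyanate known to activate the transcription factor NRF2. The control cells had DMSO alone for the same time. Both then received 100 ng/ml of lipopolysaccharide (LPS), the bacterial ligand of TLR4, for 1 h, so that every sample was LPS-stimulated and no unstimulated sample was analysed here. Each treatment had 2 arrays, and since nothing in the labels ties replicates to separate mice or cultures, p-values reflect the spread of these samples alone, which may be technical. According to its title the series concerns inhibition of interleukins 23 and 12, and the comparison asks which transcripts differ after sulforaphane.

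Receptors of this family are single-pass membrane proteins that bind trimeric ligands of the TNF superfamily through cysteine-rich repeats. Tnfrsf1a, Fas and Tnfrsf10b carry a death domain, by which they recruit adaptors such as FADD or TRADD and can activate caspase-8. The other members lack one and recruit TRAF proteins, which lead to the canonical and the alternative NF-kB pathway. In dendritic cells several of these receptors are known for effects on maturation, survival and migration.

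Promoter sequences are shown for Fas and Tnfrsf14, the members whose sulforaphane and DMSO arrays lay farthest apart, and for both start sites of Tnfrsf9, the other member with a match to a motif searched. They are RefSeq sequences of build GRCm38.p6, 300 bases each, from 250 bases before the annotated start to 50 bases after it. The table held 9 promoters for 8 of the members, 2 of them for Tnfrsf9, and Tnfrsf10b had no entry. The capitals mark matches on either strand to the NF-kB motif, to the antioxidant response element core TGACNNNGC bound by NRF2, or to the AP-1 motif TGANTCA.
Fas, chr19:34290409-34290708, plus strand: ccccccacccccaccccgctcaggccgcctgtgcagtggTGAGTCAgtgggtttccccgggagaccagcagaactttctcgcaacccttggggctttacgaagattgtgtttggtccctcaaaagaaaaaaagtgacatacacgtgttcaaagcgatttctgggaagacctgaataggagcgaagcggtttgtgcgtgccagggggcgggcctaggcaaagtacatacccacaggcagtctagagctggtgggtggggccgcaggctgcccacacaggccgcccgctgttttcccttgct
Tnfrsf14, chr4:154928028-154928327, minus strand: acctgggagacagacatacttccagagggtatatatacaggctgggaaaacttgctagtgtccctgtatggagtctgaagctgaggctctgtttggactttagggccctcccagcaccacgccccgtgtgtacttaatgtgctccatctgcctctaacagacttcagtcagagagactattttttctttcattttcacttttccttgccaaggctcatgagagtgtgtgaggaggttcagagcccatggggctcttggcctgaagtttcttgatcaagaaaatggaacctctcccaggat
Tnfrsf9, first start, chr4:150919905-150920204, plus strand: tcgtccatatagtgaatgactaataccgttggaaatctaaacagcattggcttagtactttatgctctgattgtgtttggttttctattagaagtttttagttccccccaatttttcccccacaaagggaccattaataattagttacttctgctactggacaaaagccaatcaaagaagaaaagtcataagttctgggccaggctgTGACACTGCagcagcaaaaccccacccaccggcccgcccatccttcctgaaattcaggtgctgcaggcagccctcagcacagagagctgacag
Tnfrsf9, second start, chr4:150927749-150928048, plus strand: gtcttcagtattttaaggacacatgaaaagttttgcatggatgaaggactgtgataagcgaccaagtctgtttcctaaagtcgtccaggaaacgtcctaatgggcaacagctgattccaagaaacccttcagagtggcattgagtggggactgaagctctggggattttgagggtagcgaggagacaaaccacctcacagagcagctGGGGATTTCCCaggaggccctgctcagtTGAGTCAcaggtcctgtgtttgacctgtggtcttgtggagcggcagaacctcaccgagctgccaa
The Fas promoter had 1 AP-1 match, from base -211 to -205 relative to the start. The Tnfrsf14 promoter had no match, which says only that these letters are not in the window. At the first start of Tnfrsf9 there was 1 antioxidant response element core, from base -43 to -35. At its second start lay 2 overlapping NF-kB matches, from base -43 to -33, and 1 AP-1 match, from base -15 to -9. None of the other 5 members with a promoter in the table had a match. Of all 32841 promoters of this length, 8.46% held an NF-kB match, 12.4% an antioxidant response element core and 7.81% an AP-1 match. A match is a run of letters and not evidence of binding.

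None of the 9 receptors passed the threshold of an adjusted p of 0.05 by limma over all genes, against 0.13% of all genes tested. That is 0 called higher, against 0.0614% of all genes, and 0 called lower, against 0.0683%. No member reached a 1.5-fold difference, which 2.81% of all genes reached with groups that did not overlap. The largest differences were those of Fas (-0.48) and Tnfrsf14 (-0.35), both lower in sulforaphane cells, with an adjusted p by limma of 0.233 and 0.26. These were the 2 members with an unadjusted p under 0.05, which 13% of all genes reached, 5.87% lower and 7.09% higher. Differences are log2 values of sulforaphane minus DMSO. In 3 members, Fas, Tnfrsf14 and Tnfrsf11a, both sulforaphane arrays lay below both DMSO arrays, as in 19.5% of all genes. In 2, Ltbr and Tnfrsf10b, both lay above, as in 24% of all genes. Together 5 of 9 had groups that did not overlap, against 43.6% of all genes tested. The median difference of the 9 was -0.14, with 3 above 0 and 6 below, beside a median of 0.018 over all genes. That median depended on single arrays: it was 0.027 without DMSO replicate 2, -0.030 without sulforaphane replicate 1, -0.097 without sulforaphane replicate 2 and -0.12 without DMSO replicate 1.

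**Figure D1:**
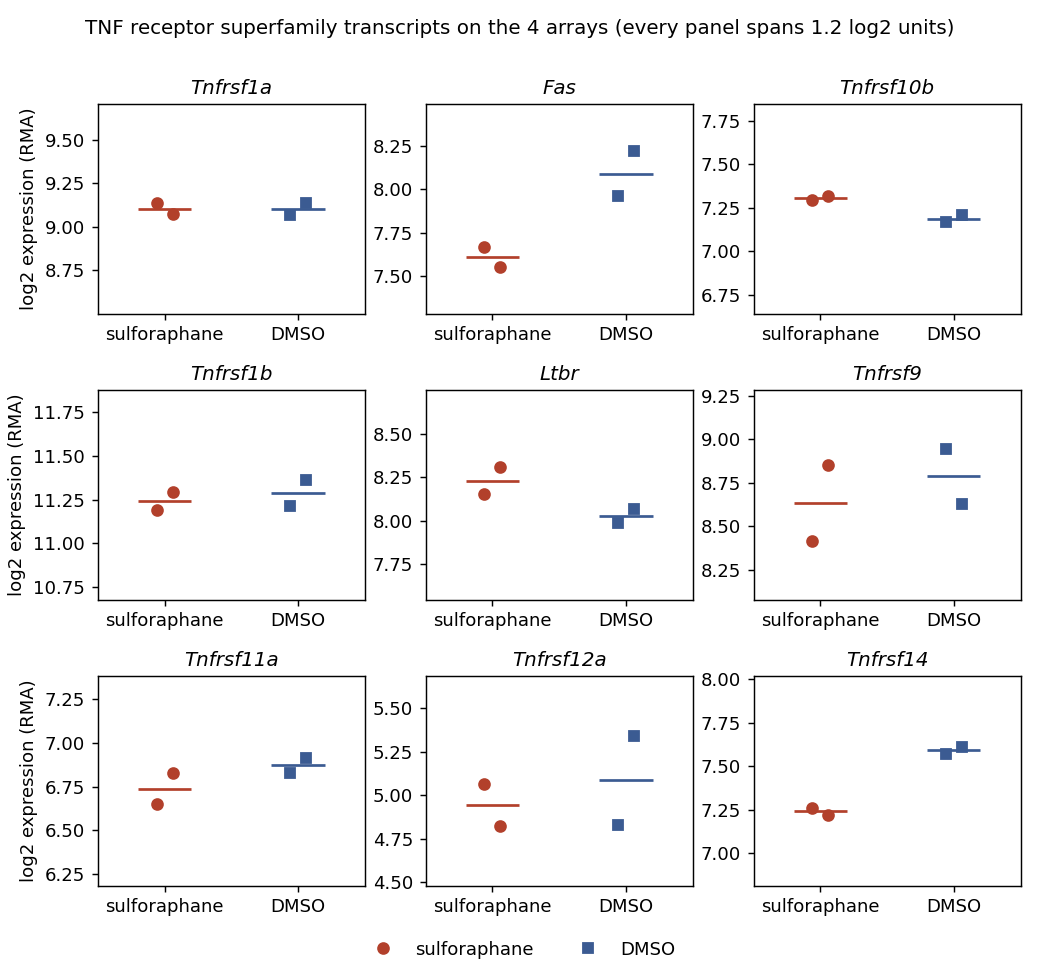
Log2 expression (RMA) of the 9 receptors on each array, with sulforaphane arrays as circles, DMSO arrays as squares and bars at the group means. Every panel spans the same range of log2 units. Fas and Tnfrsf14 show the widest gaps between the groups. In Tnfrsf9, Tnfrsf12a, Tnfrsf1a and Tnfrsf1b the replicates of both groups lie farther apart than the group means. In Tnfrsf11a those of the sulforaphane group do.

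Among the receptors with a death domain, the Fas transcript differed most. Fas is the receptor of Fas ligand and is known to trigger apoptosis of antigen-presenting cells and lymphocytes. Its log2 expression was 7.67 and 7.55 on the sulforaphane arrays, against 7.96 and 8.22 on the DMSO arrays. Both sulforaphane values were lower than both DMSO values, with 0.29 between the nearest arrays of the groups and 0.26 between the DMSO replicates. The difference was -0.48 ± 0.13 SE (n = 2 per group), a 1.39-fold lower level, with a 95% interval from -0.80 to -0.15. Its adjusted p of 0.233 by limma did not pass. With 1 array left out the difference ran from -0.61 without DMSO replicate 1 to -0.35 without DMSO replicate 2. Since the groups did not overlap, leaving out 1 array could not turn its sign.

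Tnfrsf1a, the widely expressed TNF receptor that starts both NF-kB and cell death signalling, was nearly equal in the groups. It had 9.13 and 9.07 on the sulforaphane arrays and 9.07 and 9.14 on the DMSO arrays. The arrays of the groups covered almost the same range. The difference was 0.0015 ± 0.11 SE, and the 95% interval of -0.26 to 0.26 leaves room for a difference of either sign.

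Tnfrsf10b, the mouse death receptor for TRAIL, had 7.29 and 7.32 on the sulforaphane arrays, against 7.17 and 7.21 on the DMSO arrays. The sulforaphane values were both higher, and the replicates of each group lay close together. The difference of 0.12 ± 0.11 SE had a 95% interval from -0.14 to 0.38 and did not pass (adjusted p = 0.707 by limma). It lay between 0.099 and 0.14 with any 1 array left out.

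Of the receptors that signal through TRAF proteins without a death domain, Tnfrsf14 had the widest gap between the nearest arrays of the groups, 0.31. Tnfrsf14, also called HVEM, binds the ligand LIGHT and the inhibitory receptor BTLA. Its log2 expression was 7.26 and 7.22 in sulforaphane cells, against 7.57 and 7.61 in DMSO cells. All 4 values lay close to their group means of 7.24 ± 0.032 and 7.59 ± 0.029 (SD, n = 2 each), and the groups did not overlap. The difference was -0.35 ± 0.11 SE, a 1.28-fold lower level, with a 95% interval from -0.61 to -0.093. It did not pass (adjusted p = 0.26 by limma), and it lay between -0.37 and -0.33 with any 1 array left out.

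Ltbr, the lymphotoxin beta receptor, drives the alternative NF-kB pathway and lymphoid tissue formation. It had 8.15 and 8.31 in sulforaphane cells, against 7.99 and 8.07 in DMSO cells. The sulforaphane arrays were both higher, but the nearest arrays of the groups were 0.083 apart, less than the 0.16 between the sulforaphane replicates. The difference of 0.20 ± 0.12 SE (95% interval -0.083 to 0.48) did not pass (adjusted p = 0.534 by limma), and it was 0.12 without sulforaphane replicate 2 but 0.28 without sulforaphane replicate 1.

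Tnfrsf1b, the second TNF receptor, which prefers membrane-bound TNF, had 11.19 and 11.29 in sulforaphane cells and 11.21 and 11.36 in DMSO cells. The groups overlapped. The difference was -0.046 ± 0.12 SE, with a 95% interval from -0.33 to 0.24.

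Tnfrsf11a encodes RANK, the receptor of RANKL, which prolongs dendritic cell survival and is needed for osteoclast formation. Its values were 6.65 and 6.83 in sulforaphane cells, against 6.83 and 6.92 in DMSO cells. The groups did not overlap, but by a margin of 0.0040, so that sulforaphane replicate 2 and DMSO replicate 1 were practically equal. The difference of -0.14 ± 0.12 SE (95% interval -0.43 to 0.15) was -0.23 without sulforaphane replicate 2 but -0.047 without sulforaphane replicate 1.

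Tnfrsf9 and Tnfrsf12a varied more between the replicates of both groups than between treatments, as did Tnfrsf1a and Tnfrsf1b with smaller replicate gaps. In Tnfrsf11a this held for the sulforaphane replicates alone, which were 0.18 apart. Tnfrsf9, the costimulatory receptor 4-1BB, which activated leukocytes express, had 8.41 and 8.85 in sulforaphane cells and 8.95 and 8.63 in DMSO cells. The sulforaphane replicates differed by 0.44 and the DMSO replicates by 0.32, while the groups differed by -0.15 ± 0.19 SE (95% interval -0.61 to 0.30). Tnfrsf12a, the TWEAK receptor Fn14, known as a growth- and injury-inducible gene, had 5.06 and 4.82 in sulforaphane cells and 4.83 and 5.34 in DMSO cells. Its DMSO replicates differed by 0.51, and the groups by -0.14 ± 0.19 SE (95% interval -0.61 to 0.33). In both genes the sign depended on single arrays: Tnfrsf9 differed by 0.063 without sulforaphane replicate 1 and -0.37 without sulforaphane replicate 2, and Tnfrsf12a by 0.11 without DMSO replicate 2 and -0.40 without DMSO replicate 1.

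**Figure D2:**
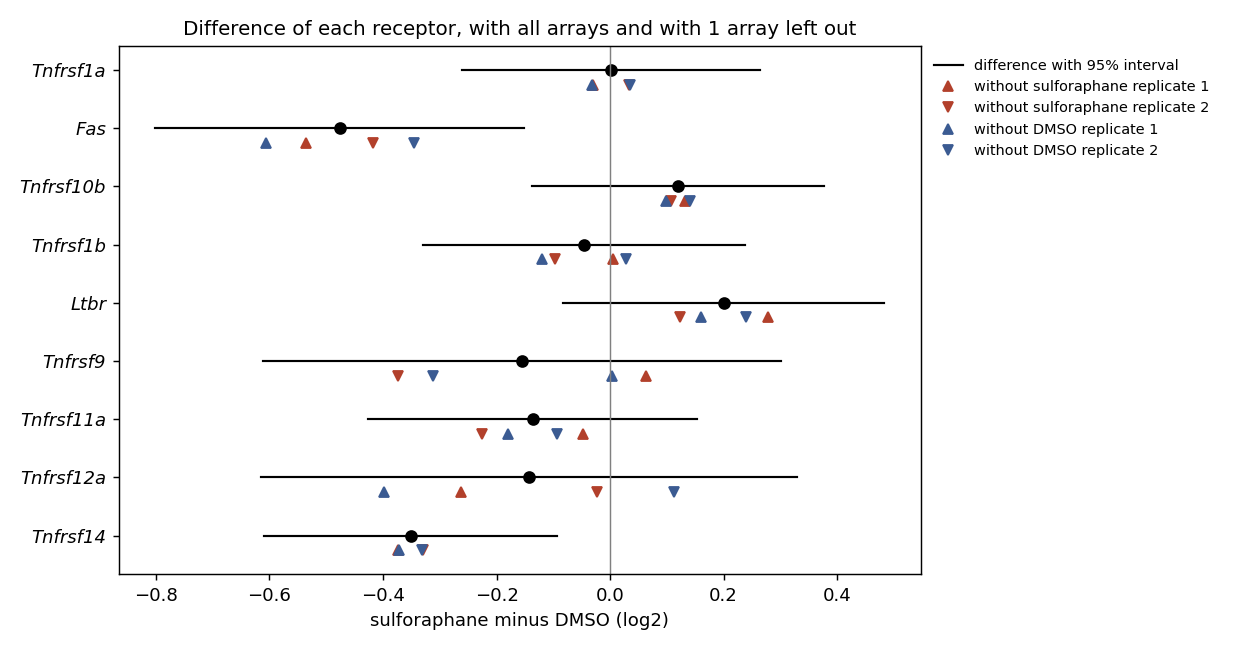
Difference of each receptor between sulforaphane and DMSO (log2, horizontal axis), with the 95% interval as a black line and, as triangles, the difference with each of the 4 arrays left out. The intervals of Fas (-0.80 to -0.15) and Tnfrsf14 (-0.61 to -0.093) lie below 0, while those of the other 7 receptors include 0. The intervals are not adjusted for the number of genes tested, and 13% of all genes had an unadjusted p under 0.05 by limma. The triangles of Tnfrsf1a, Tnfrsf1b, Tnfrsf9 and Tnfrsf12a fall on both sides of 0.

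The intervals in this comparison are wide, since each gene has 2 residual degrees of freedom, to which limma adds 4.02 from the spread over genes. No interval is adjusted for the number of genes tested. With 2 arrays against 2, an exact permutation test cannot reach a two-sided p below 0.333. In cultures measured in bulk, fewer cells of a type and less RNA per cell cannot be told apart. The level of one probe set was not set against that of another, because probe sets differ in how strongly they bind.

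The genes whose pattern over the 4 arrays was most like that of Fas were Gna15, Mid1ip1 and Ptpro. Likeness was the Euclidean distance between log2 values centred on each gene's mean, which was 0.037 for Gna15, 0.037 for Mid1ip1 and 0.039 for Ptpro. Their differences were -0.47, -0.48 and -0.45 in that order. With 4 arrays this only describes which of 14652 genes lay nearest.

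Ligands of these receptors included 1 gene past the threshold. Of 11 listed ligands and counter-receptors 7 were tested, and 1 fell and 0 rose past the threshold, against 0.0683% and 0.0614% of all genes tested. Without overlap, 4 were lower and 1 higher, in all 71.4% of the tested ligands, against 43.6% of all genes tested. The gene that fell past the threshold was Ltb, lymphotoxin beta, which pairs with lymphotoxin alpha to form the ligand of Ltbr. Ltb had 7.02 and 7.03 in sulforaphane cells, against 8.66 and 8.58 in DMSO cells, so the groups lay far apart. Its difference was -1.60 ± 0.11 SE (adjusted p = 0.0162 by limma), 3.03-fold lower, while that of its receptor Ltbr was 0.20. The call of Ltb was lost with any 1 array left out, with differences between -1.64 and -1.55 and an adjusted p by limma between 0.0604 and 0.183.

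The other ligands did not pass. Lta, lymphotoxin alpha, which also binds Tnfrsf1a and Tnfrsf1b, had 4.23 and 4.70 in sulforaphane cells, against 5.25 and 5.18 in DMSO cells (difference -0.75 ± 0.17 SE, adjusted p = 0.178 by limma). Its receptors Tnfrsf1a and Tnfrsf1b differed by 0.0015 and -0.046. Tnf itself had 12.00 and 12.05 in sulforaphane cells and 12.06 and 12.01 in DMSO cells, with a difference of -0.0075 (95% interval -0.27 to 0.25).

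Tnfsf9, the ligand of Tnfrsf9, had 7.97 and 8.33 in sulforaphane cells, against 8.89 and 8.61 in DMSO cells (difference -0.60 ± 0.17 SE, adjusted p = 0.233 by limma). Here the groups did not overlap, whereas those of Tnfrsf9 did. Tnfsf14 and Btla, which bind Tnfrsf14, had groups that did not overlap, in opposite directions. Tnfsf14, which encodes LIGHT, had 6.21 and 6.17 in sulforaphane cells, against 5.92 and 5.88 in DMSO cells (difference 0.29 ± 0.11 SE, adjusted p = 0.334 by limma). Btla had 4.46 and 4.58 in sulforaphane cells, against 4.86 and 4.82 in DMSO cells (difference -0.32 ± 0.11 SE, adjusted p = 0.315 by limma). Tnfsf10, which encodes TRAIL, overlapped between groups, with 3.04 and 3.03 in sulforaphane cells and 2.51 and 3.13 in DMSO cells (difference 0.21 ± 0.21 SE). These values lay near the filter's cut of 2.91, and DMSO replicate 1 was below it. Fasl, Tnfsf11, which encodes RANKL, and Cd160 were below the filter on low values, and Tnfsf12, which encodes TWEAK, had a probe set shared with another symbol and is not named further. The difference between a ligand and its receptor was not tested for any pair.

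**Figure D3:**
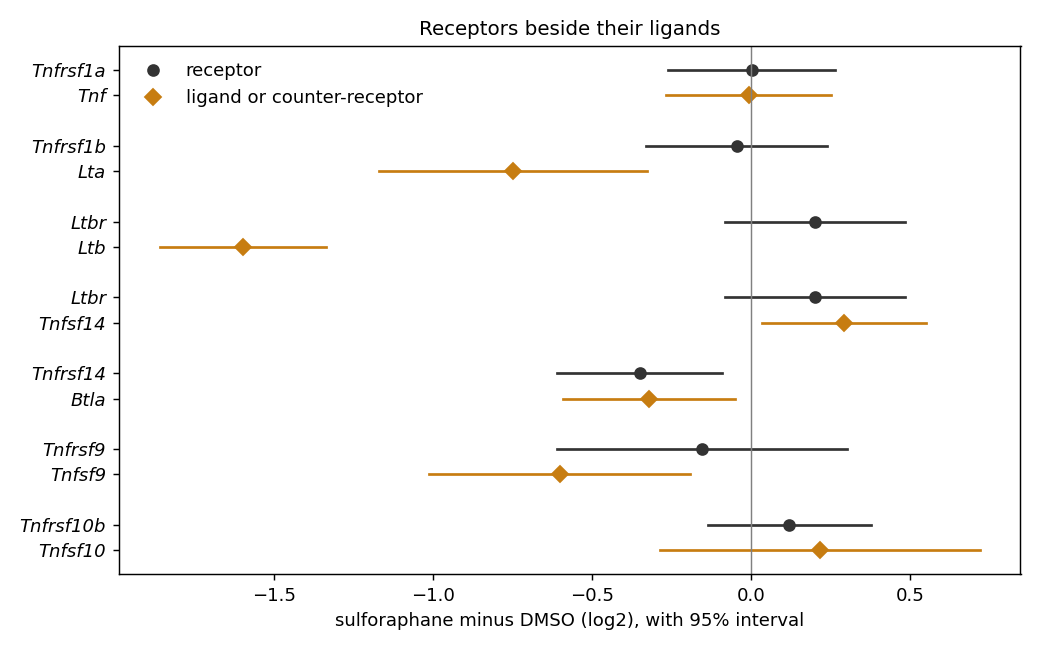
Difference between sulforaphane and DMSO (log2, horizontal axis) with 95% intervals for receptors (circles) and a ligand or counter-receptor of each (diamonds). Ltb, at -1.60, lies far below its receptor Ltbr, at 0.20, while Tnf and Tnfrsf1a both lie near 0. Lta is drawn beside Tnfrsf1b and Tnfsf14 beside Ltbr, although Lta also binds Tnfrsf1a and Tnfsf14 also binds Tnfrsf14. The log2 values of Tnfsf10 lie near the cut of the filter on low values.

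The rest of the receptor family was read from the same fit. Of 19 other receptor genes 15 were tested, 0 passed in either direction and the median difference was -0.075. Without overlap, 5 were lower and 2 higher, in all 46.7% of the list, against 43.6% of all genes tested. The decoy and neural receptors Tnfrsf11b and Ngfr, the plasma cell receptor Tnfrsf17, and Tnfrsf19 were below the filter. Cd40, the receptor by which T cells license dendritic cells, had 7.60 and 7.58 in sulforaphane cells, against 8.35 and 8.34 in DMSO cells. Its difference of -0.75 ± 0.10 SE was larger than that of any of the 9 members, and its adjusted p of 0.06 by limma lay just above the threshold. It passed with the filter at the 60th percentile (adjusted p = 0.0322 by limma), a second quantile normalization (0.0422) and an intensity trend (0.00898). Under the other alternatives that kept all 4 arrays Cd40 did not pass. Among these were no filter (adjusted p = 0.0795 by limma), median centring (0.0687) and the replicate block (0.115). Tnfrsf18, the costimulatory receptor GITR, differed by -0.46 ± 0.12 SE, the B cell survival receptor Tnfrsf13c by -0.45 ± 0.19 and Tnfrsf13b by -0.21 ± 0.13, and none of these passed. Tnfrsf13c ran from -0.67 when sulforaphane replicate 2 was left out to -0.24 when sulforaphane replicate 1 was, and it was -0.27 without DMSO replicate 2. Tnfrsf13b was -0.33 when sulforaphane replicate 1 was left out and -0.082 when sulforaphane replicate 2 was.

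Receptor-proximal signalling genes were also compared. Of 26 adaptors and kinases 23 were tested and 0 passed, with a median of 0.00060. Without overlap, 9 were lower and 5 higher, in all 60.9% of the list, against 43.6% of all genes tested. The members with the smallest p were Traf1, a TRAF protein that binds Tnfrsf1b and Tnfrsf9 complexes (-0.64 ± 0.13 SE, adjusted p = 0.148 by limma), Ikbkg, the regulatory subunit NEMO of the IkB kinase (0.54 ± 0.13), Rnf31, a linear ubiquitin ligase subunit (-0.45 ± 0.12), and Traf5 (-0.41 ± 0.12). Traf1 had 8.26 and 8.31 in sulforaphane cells, against 8.78 and 9.06 in DMSO cells. It passed with an intensity trend alone (adjusted p = 0.0347 by limma).

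Of 13 genes of the death branch 10 were tested and 0 passed, with a median of 0.045. Without overlap, 2 were lower and 3 higher, against 19.5% and 24% of all genes tested. Cflar, which encodes the caspase-8 inhibitor FLIP, averaged 8.62 ± 0.075 in sulforaphane cells and 8.97 ± 0.031 in DMSO cells (SD, n = 2 each). The groups did not overlap, and the difference of -0.35 ± 0.11 SE did not pass (adjusted p = 0.266 by limma). Bid, which links caspase-8 to mitochondria, had 6.46 and 6.42 in sulforaphane cells, against 6.02 and 6.19 in DMSO cells (0.34 ± 0.12 SE, adjusted p = 0.311 by limma). Diablo differed by 0.25 ± 0.14 SE, a value that was 0.090 when DMSO replicate 1 was left out and 0.41 when DMSO replicate 2 was. Casp6 differed by 0.10 ± 0.12 SE. Casp8 itself, named after its value was seen, differed by -0.026, with overlapping groups.

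Of 16 genes of receptor feedback and shedding all 16 were tested and 0 passed, and 15 lay below 0, with a median of -0.18. Without overlap, 11 were lower and 0 higher, against 19.5% and 24% of all genes tested. Nfkbie, an IkB protein, differed by -0.79 ± 0.11 SE, Tnip1, a partner of the ubiquitin-editing enzyme A20, by -0.71 ± 0.11, Nfkb2 by -0.46 ± 0.11 and Relb, its partner in the alternative pathway that Ltbr activates, by -0.37 ± 0.11. Their adjusted p by limma was 0.0581, 0.0785, 0.179 and 0.248 in that order. Nfkbie and Tnip1 passed with the filter at the 60th percentile, a second quantile normalization and an intensity trend, and Nfkb2 with an intensity trend. Under the other alternatives that kept all 4 arrays these genes did not pass. With the replicate block the adjusted p by limma was 0.102 for Nfkbie and 0.129 for Tnip1. Adam17, the protease that sheds TNF receptors, had 9.64 and 9.59 in sulforaphane cells, against 9.83 and 9.82 in DMSO cells (difference -0.21). It was named after its value was seen.

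**Figure D4:**
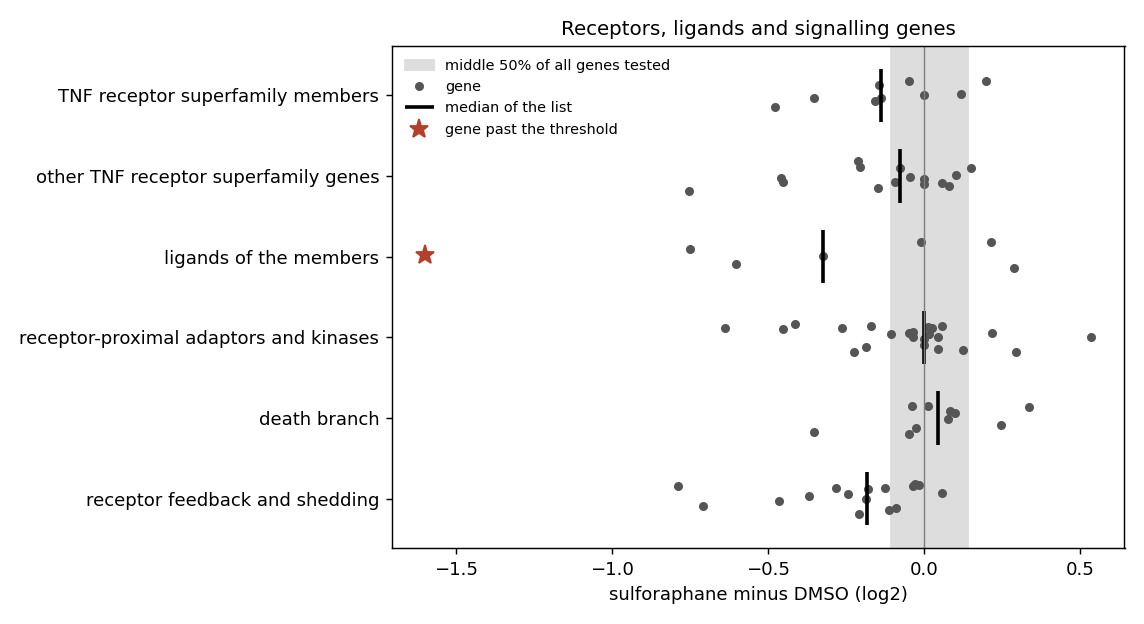
Differences between sulforaphane and DMSO (log2, horizontal axis) of every tested gene in 6 lists, with a black bar at each list's median and a grey band over the middle 50% of all genes tested, from -0.11 to 0.14. The 9 receptors have a median of -0.14, and the star marks Ltb, the gene past the threshold. The vertical scatter within a list has no meaning.

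Marker genes were set against the filter, which cannot by itself establish the label of the cells. Of all 22180 genes 14652 passed it. All 16 dendritic cell markers with a value passed the filter. Among them was Itgax, which encodes CD11c and was named after its value was seen. Itgax had 11.33 and 11.32 in sulforaphane cells and 11.26 and 11.26 in DMSO cells. Xcr1, picked because of its low signal, lay near the cut of 2.91. It had 2.88 and 2.89 in sulforaphane cells and 2.97 and 2.94 in DMSO cells. Of these 16 markers 8 were lower and 3 higher without overlap, against 19.5% and 24% of all genes tested, and 0 passed. In all, 8 of the 16 lay above 0 and 8 below, with a median of -0.029. Those with the smallest p were the transcription factors Irf4 (-0.87, adjusted p = 0.0565 by limma) and Batf3 (-0.64), the MHC class II activator Ciita (-0.46) and the enzyme Kmo (-0.45). The 3 higher without overlap were Itgax (0.066) and the MHC class II genes H2-Ab1 (0.26) and H2-Aa (0.16). These MHC class II genes were named after their values were seen. The filter was also passed by all 14 macrophage and monocyte markers and all 12 neutrophil and granulocyte markers with a value, against 7 of 9 mast cell and basophil, 4 of 8 B cell and 5 of 10 T and NK cell markers. Macrophage and monocyte markers were lower without overlap in 7 of 14 and higher in 0, against the same 19.5% and 24% of all genes, and their summed linear signal was 12700 to 13000 in sulforaphane cells, against 13700 to 14300 in DMSO cells. That of mast cell and basophil markers was 1790 to 1920 in sulforaphane cells, against 1970 to 2030 in DMSO cells, and that of B cell markers 229 to 249 in sulforaphane cells, against 270 to 290 in DMSO cells. Most of the B cell sum was the signal of Blnk, with log2 values of 7.77 and 7.52 in sulforaphane cells, against 7.84 and 7.93 in DMSO cells. Summed signals of dendritic cell, neutrophil and T and NK cell markers overlapped between the groups. The part of these marker differences in the differences of Fas and Tnfrsf14 was not tested. Array medians were 3.24 to 3.27, and DMSO replicate 1 had an interquartile range of 3.41, against 3.61 to 3.62 on the other 3 arrays.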

How the data were processed

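Biotin-labelled cRNA of 2 sulforaphane and 2 DMSO samples was hybridised to Affymetrix arrays, per the labels. The deposited values are log2 expression. The submitters' processing notes name RMA and R 2.15.1. The table does not state the log base, which was taken as 2 because RMA gives log2 and the values fit it, and every fold rests on that. RMA includes background correction and quantile normalization. Any filter the authors applied is not given in the sources used, and signal over background is unknown.

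Of 41345 probe sets, 23521 had exactly 1 symbol in the platform annotation. A gene with several probe sets was represented by the one highest on average. Genes averaging above 2.91, which is percentile 40 of the probe sets, were tested with limma 3.58.1 (lmFit, eBayes) in R 4.3.3, adjusted by Benjamini-Hochberg over 14652 genes with a threshold of 0.05 and without a replicate block. The procedure was run on simulated data with independent normal noise, which cannot show how it handles noise shared by the genes of an array. The alternatives were other filters, scalings, probe set rules and variance models, a replicate block, and each array left out.

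The members and lists were chosen with earlier results of these data known. Their shares beside those of all genes therefore only describe the lists. The text names all 9 members, every listed ligand, and in other lists the genes past the threshold and up to 4 with the smallest p. In the list of other receptors the genes below the filter are named as well. A gene named otherwise is marked in the text. Same-numbered arrays did not deviate together (correlation -0.081 over genes), so the numbers were not taken as pairs. Promoters and start sites come from RefSeq, build GRCm38.p6.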

Additional observations from a re-analysis of the deposited data

How the results depend on the processing

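No member passed the threshold under any of the 13 alternatives, and the lowest adjusted p of a member by limma was 0.113. Of 117 member differences under these alternatives 109 kept their sign and 8 turned it. The other filters, probe set rules and variance models and the replicate block left every member difference unchanged. Only the other scalings and leaving out 1 array could therefore turn a sign. The differences of Fas, Tnfrsf14, Tnfrsf11a, Ltbr and Tnfrsf10b kept their sign throughout. Their groups did not overlap, so leaving out 1 array could not turn it. Tnfrsf1a was -0.025 with a second quantile normalization. With 1 array left out, Tnfrsf1a ran from -0.032 to 0.035, Tnfrsf1b from -0.12 to 0.027, Tnfrsf9 from -0.37 to 0.063 and Tnfrsf12a from -0.40 to 0.11. Among the other genes, Tnf was 0.013 with median centring, and with 1 array left out Tnf ran from -0.032 to 0.017, Tnfsf10 from -0.092 to 0.52 and Casp6 from -0.0075 to 0.21. The cause of these turns was not tested. The 19 genes past the threshold over all genes (9 higher, 10 lower) became 138 with the filter at the 60th percentile (57 higher, 81 lower), 106 with a second quantile normalization (34 higher, 72 lower), 34 with probe sets averaged per gene (11 higher, 23 lower) and 249 with an intensity trend (96 higher, 153 lower). With 1 array left out it was 0 to 0 by limma, with 1036 to 2850 genes at an unadjusted p under 0.05. The replicate block gave 8 genes over all and 0 of the 9 members, and the pairing by number is not given by the labels.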
